A study of Mus musculus with 4 samples.

Results

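Secreted Wnt modulators are described here across the fibroblast types of the mouse lymph node: the ligand gene Wnt5a, the agonist gene Rspo3, and the antagonist genes Sfrp1, Sfrp2, Sfrp4, Dkk2, Dkk3 and Wif1. These 8 genes, of 32285 in the count matrices, were taken by name as secreted ligands, agonists and antagonists of the Wnt pathway, and all 8 were found. Single-cell RNA sequencing of 4 libraries, 2 controls and 2 Notch2 cKO, counted molecules at transcript 3′ ends by unique molecular identifiers (UMIs), and each of 2 batches held a control and a Notch2 cKO library. Per the labels, live CD45-negative CD31-negative cells were sorted from axillary, brachial and inguinal nodes of female C57BL/6 mice aged 12 weeks, and the series title asks how Notch2, a cell-surface receptor, takes part in fibroblast specialization.

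Control 1 carried Ccl19-Cre and R26R-EYFP, a fluorescent Cre reporter, and Notch2 cKO 1 carried Ccl19-Cre, Notch2 fl/fl and R26R-EYFP. Both pooled 6 mice that were not littermates. Control 2 carried Notch2 fl/fl without Cre by its genotype label, although its title names Ccl19-Cre, and Notch2 cKO 2 carried Ccl19-Cre and Notch2 fl/fl. Both pooled 3 littermates. The kind of control, the reporter and the batch therefore cannot be told apart. Ccl19-Cre deletes Notch2 only in cells that have expressed Ccl19, so the groups are no model of a node without Notch2.

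Wnt ligands act on Frizzled receptors, either through beta-catenin with the co-receptors Lrp5 and Lrp6 or through receptors such as Ror2, to which Wnt5a binds. R-spondins amplify the response by removing enzymes that clear Frizzled from the cell surface. Secreted frizzled-related proteins (Sfrp) and Wif1 bind Wnt ligands outside the cell, whereas Dkk2 binds Lrp5 and Lrp6.

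Cells were typed one by one with gates on marker genes that contain no member, named after those markers: T-zone (Ccl21a, Ccl19, Il7, Grem1), interferon (Cxcl9, Cxcl10), marginal (Madcam1, Cxcl13, Tnfsf11), Pi16 adventitial, Mgp adventitial, medullary-type (Inmt, Car3), Ccn3 Has1, Fabp4 Col15a1 and inflammatory (Ptgs2, Il6). The thresholds were set on these data. Fibroblast-like cells numbered 8924 and 7676 in control 1 and Notch2 cKO 1 and 14841 and 11229 in control 2 and Notch2 cKO 2, and 9 gated types held at least 50 cells in every library. Cells were gated on the sums of these same markers, so the following check is largely set by the gating. It is no independent support for the names. In T-zone, interferon, Pi16 and inflammatory gates every marker was highest in its own gate in each library. This held for 3 to 5 of 5 markers in the marginal gate, 3 to 4 of 4 in the medullary-type gate, 3 of 4 in the Mgp adventitial gate, 2 to 4 of 4 in the Ccn3 Has1 gate (2, with 1 marker at 0, in Notch2 cKO 1) and 1 to 2 of 3 in the Fabp4 Col15a1 gate, so the last names rest on less. Between 15.8% and 21.04% of cells lay near a gate's threshold. Median UMIs per kept cell were 2123 and 2960 in batch 1 and 6169 and 7604.5 in batch 2, control first, and pairs of libraries shared 21 to 57 cell barcodes. Levels below are CPM, the UMIs of a gene in the summed cells of a type per 1000000 UMIs of those cells, and the 4 values of a gene are given in the order control 1, Notch2 cKO 1, control 2, Notch2 cKO 2.

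The promoters of Sfrp2 and Dkk2 are shown because the levels of these genes lay on opposite sides in T-zone cells, Sfrp2 above the other types and Dkk2 below them. Both are the 250 bases upstream of the annotated start, from RefSeq on the GRCm38.p6 build, plus strand, and TATAAA is in capitals.
Sfrp2 promoter, chr3:83766071-83766320: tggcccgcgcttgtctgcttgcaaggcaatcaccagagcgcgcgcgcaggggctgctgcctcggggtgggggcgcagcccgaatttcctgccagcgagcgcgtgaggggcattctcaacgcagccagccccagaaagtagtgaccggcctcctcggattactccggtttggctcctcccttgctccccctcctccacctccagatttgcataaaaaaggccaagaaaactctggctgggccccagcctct
Dkk2 promoter, chr3:132085042-132085291: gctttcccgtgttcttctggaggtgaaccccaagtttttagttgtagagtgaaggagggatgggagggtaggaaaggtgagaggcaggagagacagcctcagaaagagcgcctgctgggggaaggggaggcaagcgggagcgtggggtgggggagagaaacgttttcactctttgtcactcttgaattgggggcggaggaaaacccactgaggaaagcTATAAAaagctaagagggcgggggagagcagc
Of the 8 members, 3 (Sfrp2, Dkk2 and Wif1) matched the promoter table. On both strands, TATAAA, the core of a TATA box, was found once each for Dkk2 and Wif1 and not for Sfrp2, against 12.4% of 32851 promoters of the same length. TGGGAA, the core bound by RBPJ, the DNA-binding partner of Notch, was in 0 of the 3 (21.6% of all promoters), and CTTTGA, the core bound by TCF and LEF factors, was in 0 of the 3 (13.8%). With no match for those, no motif overlapped another.

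On the mm10 build, Sfrp1 (ENSMUSG00000031548) spans chr8:23411502-23449632, Sfrp2 (ENSMUSG00000027996) chr3:83766321-83774316, Sfrp4 (ENSMUSG00000021319) chr13:19623104-19632994, Dkk2 (ENSMUSG00000028031) chr3:132085292-132180304 and Wif1 (ENSMUSG00000020218) chr10:121033960-121100650. Wnt5a (ENSMUSG00000021994) spans chr14:28504750-28527448, Rspo3 (ENSMUSG00000019880) chr10:29452416-29535867 and Dkk3 (ENSMUSG00000030772) chr7:112116017-112159057.

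The members differed in the fibroblast types that held them. By the mean over the 4 libraries, Pi16 adventitial cells were highest for Sfrp2 and Sfrp4, and Mgp adventitial cells for Dkk3. Marginal and medullary-type cells were highest for Rspo3 and Dkk2, and T-zone cells were low for Rspo3, Dkk2, Sfrp4 and Wnt5a. For Sfrp4 the order of Pi16 and Ccn3 Has1 cells changed between libraries. Each type was tested against the mean of the other gated types with edgeR's quasi-likelihood test, libraries as a block and Benjamini-Hochberg adjustment over 10831 genes. Of the 63 pairs of a tested member and a type, 16 were higher and 15 lower past an adjusted p of 0.05. Wif1 did not pass the filter on low counts, so 7 members were tested.

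Many genes of all kinds passed these contrasts. In T-zone cells 1 of 7 members was higher and 4 were lower, where 21.8% of all genes were higher and 19.4% lower. In Pi16 adventitial cells 4 were higher and 1 lower (17.9% and 20.2% of all genes), and in Mgp adventitial cells 3 and 3 (13.5% and 15.3%). In marginal cells 2 were higher and 3 lower (14.2% and 12.1%), in interferon cells 1 and 2 (12.0% and 5.06%). In medullary-type cells 4 were higher (11.5% of all genes), in Ccn3 Has1 cells 1 was higher (6.65%), and in Fabp4 Col15a1 cells 2 were lower (10.0%).

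**Figure D1:**
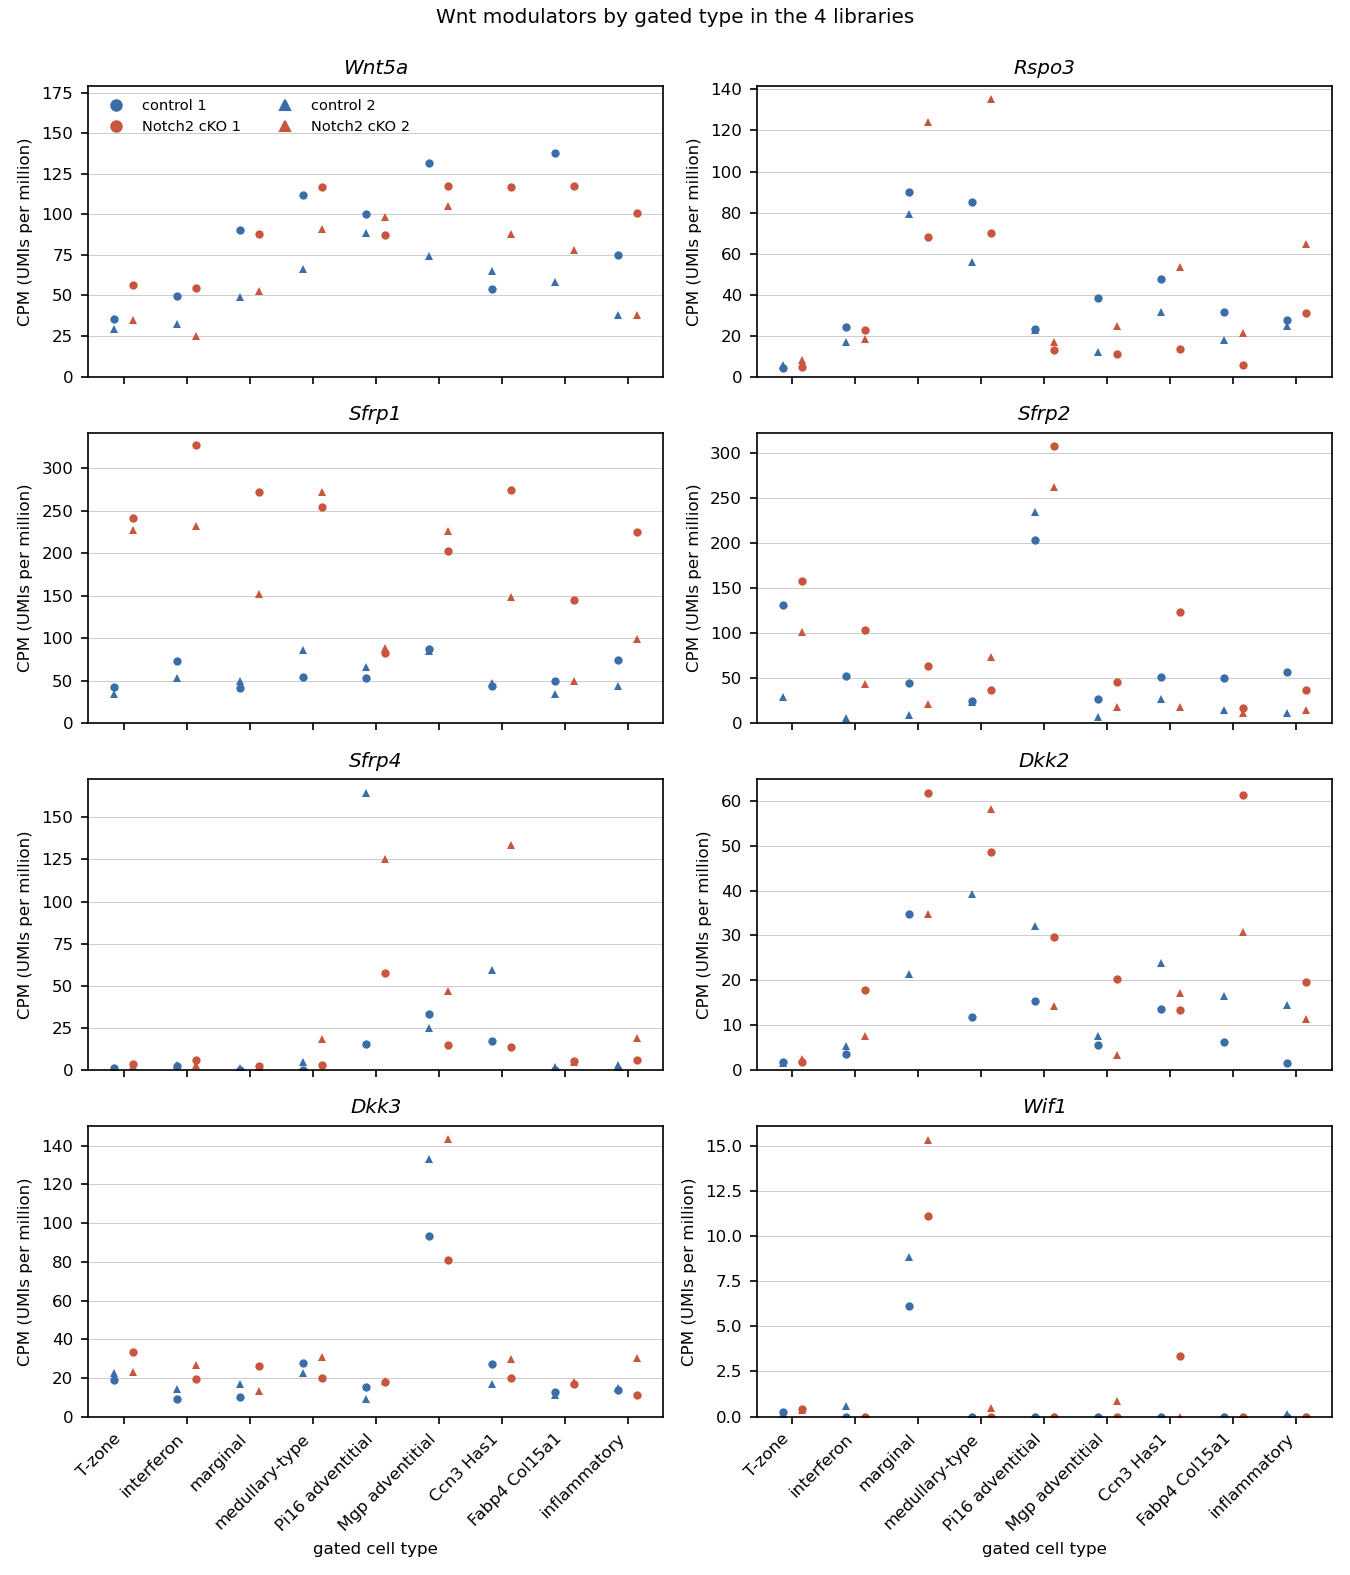
CPM (linear axis from 0) of each member in the gated types, 1 point per library, coloured by group (blue control, red Notch2 cKO) and shaped by batch. Dkk3 stands out in Mgp adventitial cells at 80.8 to 144 CPM and Sfrp2 in Pi16 adventitial cells at 204 to 307 CPM. Rspo3 and Dkk2 have their lowest means in T-zone cells, although single points of other types overlap the T-zone points.

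Wnt5a, the non-canonical Wnt ligand, was found in every gated type with modest differences. It lay at 132, 118, 74.5 and 105 CPM in Mgp adventitial cells, 112, 117, 66.1 and 91.0 in medullary-type cells and 99.9, 87.3, 88.2 and 98.2 in Pi16 adventitial cells. These ranges overlapped with each other and with those of Fabp4 Col15a1, Ccn3 Has1 and marginal cells. T-zone cells held 35.4, 56.8, 29.6 and 34.7 CPM and interferon cells 49.4, 54.9, 32.2 and 24.995, the lowest of the order, and overlapped each other. By edgeR's quasi-likelihood test, Wnt5a was higher in medullary-type (log2 difference 0.56, adjusted p = 6.43e-04), Mgp (0.51, adjusted p = 0.00206) and Pi16 cells (0.46, adjusted p = 0.00635). It was lower in T-zone (-0.92, adjusted p = 2.78e-08) and interferon cells (-0.89, adjusted p = 9.37e-06). The Pi16 call was lost without control 2.

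Rspo3, the R-spondin gene among the members, was high in marginal and medullary-type cells and low in T-zone cells. In marginal cells its level was 90.1, 68.0, 79.2 and 124 CPM, and in medullary-type cells 85.3, 69.9, 55.9 and 135, and these ranges overlapped. In T-zone cells it was 4.38, 4.57, 5.57 and 8.03 CPM, below every library of the marginal and medullary-type gates. The log2 differences from the other types were 2.00 (SE 0.12, adjusted p = 9.91e-15) in marginal, 1.94 (SE 0.13, adjusted p = 5.51e-13) in medullary-type and -2.41 (SE 0.15, adjusted p = 3.75e-15) in T-zone cells, by edgeR's quasi-likelihood test. Inmt, a gate marker of the medullary type, was among the genes whose level followed Rspo3 most closely.

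Sfrp2 had its highest level in Pi16 adventitial cells, at 204, 307, 235 and 262 CPM (mean 252 ± 44.0, SD, n = 4 libraries). T-zone cells followed with 131, 158, 29.3 and 101 CPM, and control 2 stood below the other 3 libraries. No library of another of the 9 tested types reached the lowest Pi16 value. Against the other types, the log2 difference was 2.97 in Pi16 cells (SE 0.25, adjusted p = 6.58e-12) and 1.22 in T-zone cells (SE 0.23, adjusted p = 5.44e-05), by edgeR's quasi-likelihood test. Sfrp2 was lower in Mgp adventitial (-1.51, adjusted p = 0.00488) and marginal cells (-0.94, adjusted p = 0.0332) by the same test, and the marginal call was lost without control 2 or Notch2 cKO 2 (-0.72 and -0.84).

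Sfrp4 was low in most types and high in 3 of them. Pi16 adventitial cells held 15.4, 57.5, 164 and 125 CPM, on 4, 58, 328 and 88 UMIs. Ccn3 Has1 cells held 16.95, 13.4, 59.5 and 134 CPM and Mgp adventitial cells 32.9, 14.7, 24.9 and 46.8, and the 3 ranges overlapped. The levels in Pi16 and Ccn3 Has1 cells were higher in batch 2 than in batch 1. By edgeR's quasi-likelihood test with libraries as a block, Sfrp4 was higher in Pi16 (4.31, adjusted p = 3.34e-14), Ccn3 Has1 (3.48, adjusted p = 6.81e-10) and Mgp cells (1.98, adjusted p = 3.98e-05), and lower in T-zone (-2.50) and marginal cells (-3.25). With doubled gate thresholds neither lower call passed (-2.04 and -2.91).

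Dkk2, an antagonist at Lrp5 and Lrp6, was highest in medullary-type cells at 11.8, 48.6, 39.3 and 58.3 CPM and in marginal cells at 34.8, 61.8, 21.3 and 34.7 CPM, which overlapped. T-zone cells, the most numerous gate, held 1.84, 1.86, 1.58 and 2.34 CPM. The log2 differences were 1.82 in medullary-type (adjusted p = 1.10e-07), 1.33 in marginal (adjusted p = 9.04e-06) and -3.15 in T-zone cells (SE 0.26, adjusted p = 3.71e-12) by edgeR's quasi-likelihood test. Dkk2 and Rspo3 thus shared their 2 highest types and their lowest mean.

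Dkk3, a divergent member of the Dickkopf family, marked Mgp adventitial cells. Its level there was 93.3, 80.8, 133 and 144 CPM, above every library of every other gated fibroblast type tested. The T-zone values, 18.8, 33.4, 22.5 and 23.2 CPM, overlapped those of the medullary-type gate at 27.4, 19.8, 22.4 and 30.6. The log2 difference of Mgp cells from the other types was 2.58 (SE 0.13, adjusted p = 1.59e-16) by edgeR's quasi-likelihood test.

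Wif1 rested on few UMIs. In marginal cells it lay at 6.14, 11.1, 8.82 and 15.3 CPM, on 3, 9, 116 and 189 UMIs, and in T-zone cells at 0.263, 0.424, 0.148 and 0.362 CPM. Every marginal library exceeded every T-zone library, and since Wif1 did not pass the filter in this fit, the difference has no test.

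The mean of Sfrp1 over the 4 libraries was higher in medullary-type (log2 0.65, adjusted p = 0.0145) and interferon cells (0.55, adjusted p = 0.0482) and lower in Fabp4 Col15a1 cells (-1.17, adjusted p = 0.00492) by edgeR's quasi-likelihood test. The interferon call was lost without TMM normalization, and without Notch2 cKO 2 none of the 3 calls passed (0.49, 0.45 and -0.79). Within Notch2 cKO 1 its level ranged from 82.3 CPM in Pi16 adventitial to 327 in interferon cells, and within control 1 from 40.9 in marginal to 87.8 in Mgp adventitial cells.

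Notch2 itself, the targeted gene, was at 41.8, 14.2, 56.8 and 36.5 CPM in T-zone cells, lower in Notch2 cKO in both batches (log2 -1.13, edgeR quasi-likelihood adjusted p = 0.0275). It was also lower in medullary-type cells (-1.06, adjusted p = 0.0336, by the same test) and did not pass in the other 7 gated types. In Pi16 adventitial cells Notch2 was at 84.5, 93.2, 153 and 134 CPM, and in all fibroblast-like cells the difference of -0.84 did not pass (adjusted p = 0.0643, edgeR). The deleted exons are not named in the sources used here, so 3′ counts may lie outside them and check the deletion only in part. Leukocyte markers (7 genes) summed to 3.65, 7.97, 7.57 and 13.6 CPM in all fibroblast-like cells, higher in Notch2 cKO in both batches. Itgax was at 0 in control 1. In T-zone cells they summed to 2.80, 6.02, 7.24 and 10.96 CPM, and the part of such RNA in the results below was not tested. Endothelial markers (5 genes) ranged from 6.42 to 29.6 CPM, Schwann markers (4 genes) from 1.91 to 4.18 and epithelial markers (4 genes) from 0.0406 to 1.15 in all fibroblast-like cells. Fewer cells of a state and less RNA per cell cannot be told apart in these sums.

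Between genotypes, Sfrp1 rose in Notch2 cKO in all fibroblast-like cells and in 7 of the 9 gated types. It did not pass in Pi16 adventitial (log2 difference 0.42) or Fabp4 Col15a1 cells (0.83), where the differences were also positive. Leukocyte-gated cells, which should lack Sfrp1, held a mean of 0.756 CPM in controls and 33.3 CPM in Notch2 cKO. The part of RNA from other cells in the Pi16 and Fabp4 Col15a1 differences was not tested. No other member passed the test in all fibroblast-like cells. Sfrp2 and Sfrp4 rose in 2 gated types each, and Wnt5a, Rspo3, Dkk2, Dkk3 and Wif1 passed in no comparison. Counts summed per library were tested with edgeR's quasi-likelihood test and batch as a term, with Benjamini-Hochberg adjustment over all genes of a type. With 2 pooled libraries per group, 1 residual degree of freedom is left, so the test draws each gene's spread toward that of all genes. Its p-values rest on spread between pooled libraries, in large part that of other genes. They should not be ranked between types.

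In all fibroblast-like cells 1 of 8 members rose, where 2.2% of all genes were called. The median log2 difference over the 8 members was 0.65, beside 0.02 over all genes tested. In T-zone cells 2 of 7 tested members rose (4.25% of all genes called), with a median of 0.39 beside 0.02. In medullary-type cells 3 of 7 rose (1.2% of genes called), in interferon cells 2 of 6 (3.41%), in marginal cells 1 of 7 (1.99%), in Ccn3 Has1 cells 1 of 7 (0.701%), in Mgp adventitial cells 1 of 7 (0.384%) and in inflammatory cells 1 of 4 (1.42%). In ungated fibroblasts 1 of 7 rose (3.36%). In Pi16 adventitial cells 0 of 7 passed (0.71%), and in Fabp4 Col15a1 cells 0 of 3 (0.512%), by edgeR. At an unadjusted p under 0.05 these counts were 0 and 2. No member fell in any of these.

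Sfrp1, which encodes a soluble Wnt-binding protein, was at 43.1, 242, 34.2 and 227 CPM in T-zone cells, and both Notch2 cKO libraries lay far above both controls. The log2 difference was 2.55 (SE 0.21, adjusted p = 6.67e-04, edgeR quasi-likelihood test), 2.50 within batch 1 and 2.64 within batch 2. In all fibroblast-like cells the values were 52.1, 253, 46.0 and 212 CPM, a log2 difference of 2.19 (SE 0.21, adjusted p = 0.00176) by the same test. In the other types where it passed, the groups did not overlap and the difference ranged from 1.30 in Mgp adventitial cells (87.8, 202, 85.3 and 226 CPM, adjusted p = 0.0163) to 2.02 in interferon cells (73.6, 327, 53.4 and 231 CPM, adjusted p = 7.51e-05). Marginal cells held 40.9, 272, 49.2 and 152 CPM (1.97, adjusted p = 9.18e-11) and medullary-type cells 54.9, 254, 85.8 and 272 CPM (1.79, adjusted p = 7.90e-09), by the same edgeR test. Without the batch term, and without each library in turn, these calls were lost while the log2 difference in T-zone cells stayed between 2.31 and 2.74 over all alternatives.

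Sfrp1 in Pi16 adventitial cells was at 53.8, 82.3, 66.1 and 88.2 CPM. The Notch2 cKO libraries were the higher ones in each batch, and the groups lay closer together than in any gated type where Sfrp1 passed. The log2 difference was 0.42 (SE 0.32, adjusted p = 1.00, edgeR quasi-likelihood test). Tested directly as a type by genotype term, the effect in Pi16 cells was smaller than in T-zone cells by a log2 difference of -2.24 (SE 0.40, adjusted p = 0.00247), a comparison in which 0.905% of all genes were called. Of the other 7 types none differed from T-zone cells past the threshold, with the largest differences in Fabp4 Col15a1 (-1.49, adjusted p = 0.327) and Mgp adventitial cells (-1.23, adjusted p = 0.126) by the same edgeR test. Without control 2 the Pi16 difference was -1.73 with an adjusted p of 0.825. The Notch2 log2 difference in Pi16 cells was 0.20 within batch 1 and -0.35 within batch 2. Its own difference between Pi16 and T-zone cells did not pass (0.96, adjusted p = 0.0889, edgeR). A link between these Notch2 levels and the Sfrp1 effect was not tested.

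**Figure D2:**
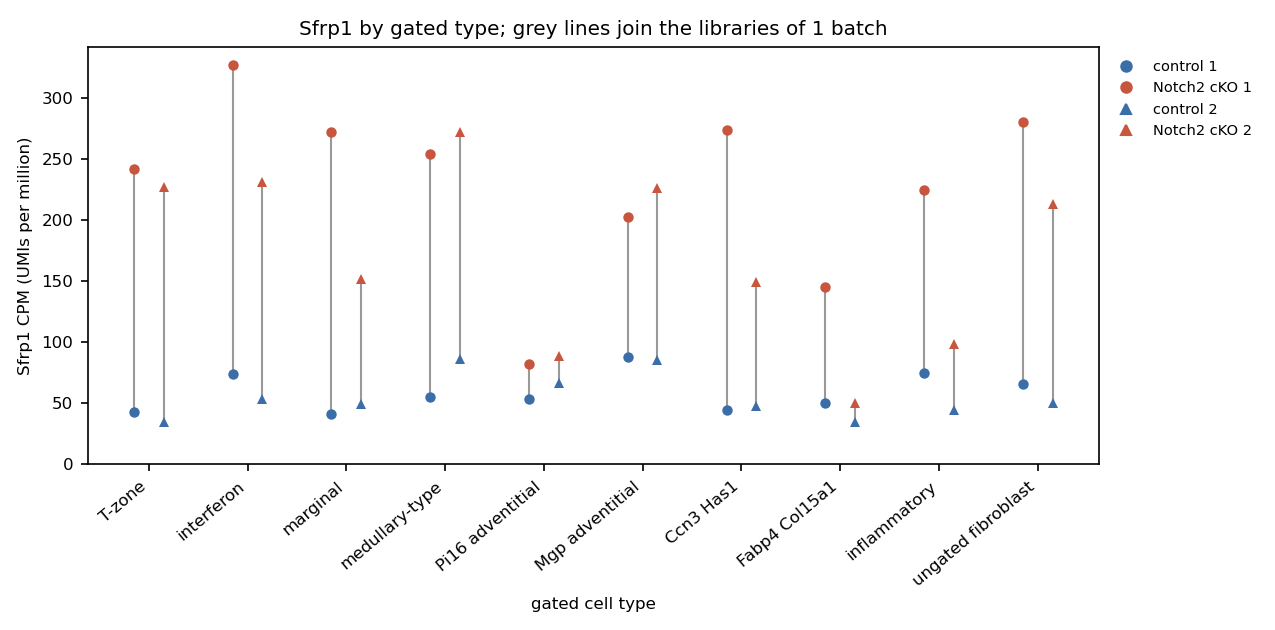
Sfrp1 in CPM (linear axis from 0) by gated type, with a line joining the control and Notch2 cKO library of each batch. The lines rise in T-zone cells from 43.1 to 242 and from 34.2 to 227 CPM, and in Pi16 adventitial cells from 53.8 to 82.3 and from 66.1 to 88.2 CPM.

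Shares of cells with an Sfrp1 UMI were compared after thinning each cell to 1000 UMIs, because depth differed between libraries. In T-zone cells the thinned shares were 4.05% (exact Clopper-Pearson 95% interval 3.4995 to 4.67), 19.8% (18.5 to 21.2), 3.92% (3.37 to 4.53) and 19.0% (17.9 to 20.1). The intervals of the groups lay apart, and cover counting error only. Unthinned, the shares were 9.63%, 49.1%, 22.8% and 78.7%. Pi16 adventitial cells had thinned shares of 5.79%, 6.48%, 9.17% and 7.07%, in marginal cells 2.94%, 15.4%, 3.75% and 12.7%, and in medullary-type cells 6.08%, 20.5%, 6.31% and 21.7%. In leukocytes, which should lack Sfrp1, the thinned counts were 0 of 271 cells of control 2 (a count of 0 allows up to 1.11%) and 8 of 231 of Notch2 cKO 2 (3.46%, interval 1.51 to 6.71), and unthinned 2 and 25 of these cells held a UMI (0.738% and 10.8%), at unthinned median depths of 3840 and 3320 UMIs against 8274.5 and 10526 in T-zone cells. Within control 2 and within Notch2 cKO 2, the thinned T-zone share thus lay above the thinned leukocyte share.

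**Figure D3:**
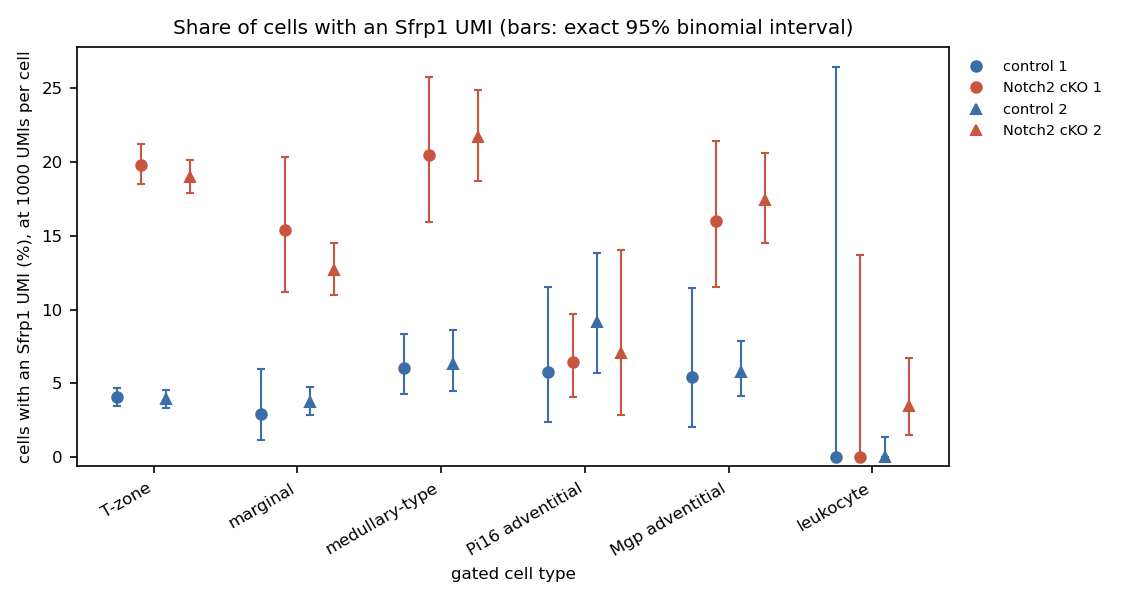
Percent of cells with at least 1 Sfrp1 UMI after thinning to 1000 UMIs per cell, by type and library, with exact 95% Clopper-Pearson intervals. Notch2 cKO libraries lie at 19.0% and 19.8% in T-zone cells and controls at 3.92% and 4.05%, whereas the 4 libraries overlap in Pi16 adventitial cells.

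Sfrp2 showed a rise of uneven size. In interferon cells it was at 52.9, 104, 6.25 and 43.6 CPM, higher in Notch2 cKO in each batch, with control 1 above Notch2 cKO 2, so that the groups overlapped. The log2 difference was 1.74 (adjusted p = 0.00214, edgeR quasi-likelihood test), 0.96 within batch 1 and 2.45 within batch 2. Leaving out control 2 or Notch2 cKO 1 gave 0.37 and 0.51, and leaving out control 1 gave 3.47. In medullary-type cells the values were 24.5, 36.5, 24.1 and 73.5 CPM without overlap, a difference of 1.14 (adjusted p = 0.0104, edgeR), which was 0.11 with the gate thresholds doubled and 0.56 without Notch2 cKO 2. In T-zone cells the difference of 0.97 did not pass (adjusted p = 0.159, edgeR), at 0.28 within batch 1 and 1.70 within batch 2. Control 2, the control without Cre, was the lowest library for Sfrp2 in T-zone, interferon and marginal cells. For Pi16 adventitial cells, the type with most Sfrp2, the difference was 0.30 with an adjusted p of 1.00.

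Sfrp4 rose in T-zone cells from very low levels, 1.05, 3.39, 0.468 and 2.14 CPM on 12, 40, 19 and 112 UMIs. Both Notch2 cKO libraries exceeded both controls, with a log2 difference of 1.89 (SE 0.41, adjusted p = 0.0374, edgeR quasi-likelihood test). With DESeq2 the difference was 1.87 with an adjusted p of 0.255, and it ranged from 1.26 to 2.53 without a library. In medullary-type cells Sfrp4 was at 0, 3.04, 4.43 and 18.6 CPM, on 0, 2, 16 and 78 UMIs, and control 2 lay above Notch2 cKO 1. The fitted difference of 1.98 passed (adjusted p = 0.0231, edgeR) but rests on few UMIs, and a count of 0 in control 1 allows up to 2.94 CPM. Without control 2, which leaves only that control, the fitted value was 7.59. In Pi16 adventitial cells, where the mean of Sfrp4 was highest, the difference was 0.08 (adjusted p = 1.00, edgeR), 15.4 against 57.5 CPM in batch 1 and 164 against 125 in batch 2.

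The other members did not pass between genotypes. In all fibroblast-like cells Wnt5a was at 56.5, 71.9, 42.8 and 46.1 CPM (log2 difference 0.18, adjusted p = 0.891) and Rspo3 at 20.3, 14.96, 24.1 and 35.7 (0.03, adjusted p = 0.992), by edgeR's quasi-likelihood test. The Rspo3 groups overlapped and its direction differed between batches, -0.43 in batch 1 and 0.50 in batch 2. Dkk2 lay at 5.74, 13.0, 11.6 and 11.9 CPM (0.52, adjusted p = 0.628), Dkk3 at 18.1, 28.8, 23.2 and 27.1 (0.39, adjusted p = 0.583) and Wif1 at 0.292, 0.894, 1.24 and 2.24 CPM (1.04, adjusted p = 0.425) by the same edgeR test. Marginal cells made up 238, 260, 1681 and 1475 of the cells in the 4 libraries and held 3 of 6, 9 of 22, 116 of 134 and 189 of 222 of the Wif1 UMIs of all fibroblast-like cells. Within marginal cells the Wif1 difference was 0.71 (adjusted p = 0.740) and that of Dkk2 0.67 (adjusted p = 0.314) by edgeR, and with doubled gate thresholds Dkk2 there was called at 1.64.

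**Figure D4:**
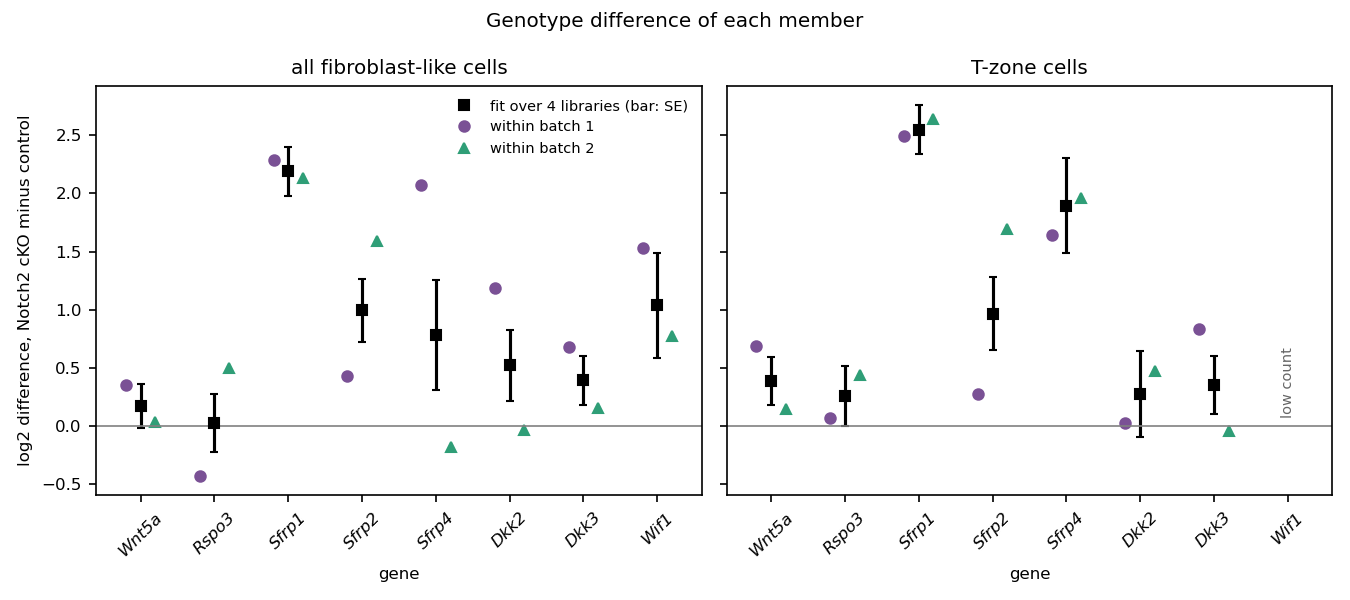
Log2 difference of Notch2 cKO minus control for each member, in all fibroblast-like cells and in T-zone cells, with squares and bars for the edgeR fit and its SE, circles for batch 1 and triangles for batch 2. Sfrp1 is at 2.19 and 2.55, above the bars of the other members, and Wif1 has no value in T-zone cells because it did not pass the filter on low counts.

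The rest of the pathway was followed with lists of Wnt genes. Of 17 secreted antagonists, 11 were tested in all fibroblast-like cells, and 4 rose and 0 fell (median log2 1.04, with 0 lower unadjusted, edgeR), where 2.2% of all genes were called. In T-zone cells 9 were tested, and 5 rose and 0 fell (median 1.32, with 0 lower unadjusted), where 4.25% of all genes were called, beside an all-genes median of 0.02 in both. Besides Sfrp1 and Sfrp4 these were Frzb, a frizzled-related antagonist (T-zone 3.15, 17.4, 3.55 and 16.7 CPM, log2 2.26, adjusted p = 0.00163), Sostdc1, an antagonist of Wnt and BMP signals (49.8, 118, 52.6 and 151 CPM, 1.32, adjusted p = 0.00667), and Draxin (6.48, 29.5, 11.6 and 28.5 CPM, 1.63, adjusted p = 0.0119), by edgeR's quasi-likelihood test. In these 3 genes both Notch2 cKO libraries lay above both controls. The antagonists include the members, and the lists were written with earlier results known, so the counts are a description.

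Among 19 ligands, 8 were tested in T-zone cells, and Wnt10a rose (log2 2.08, adjusted p = 0.0266, edgeR) from 0.613 and 0.616 to 3.30 and 2.48 CPM. These Wnt10a levels rest on few UMIs, 7 and 25 in the controls and 39 and 130 in Notch2 cKO. Wnt6 fell by 1.06 on the log2 scale (adjusted p = 0.0430, edgeR), from 30.1 and 20.0 to 10.8 and 13.5 CPM. The R-spondin Rspo1 rose (19.7, 46.9, 16.4 and 49.2 CPM, log2 1.36, adjusted p = 0.00486, edgeR), unlike Rspo3, at 4.38, 4.57, 5.57 and 8.03 CPM (0.26, adjusted p = 0.774); the difference between these genes was not tested. Of 16 receptors and co-receptors tested 1 rose, near the 4.25% of all genes called, and this was Ror2, a receptor of Wnt5a (3.59, 11.1, 18.3 and 52.4 CPM, 1.49, adjusted p = 0.00539, edgeR). The Ror2 groups overlapped because batch 2 was higher, and within each batch Notch2 cKO was above control.

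Of 10 canonical targets and feedback genes tested in T-zone cells, where 4.25% of all genes were called, 1 rose. This was Tnfrsf19, a receptor gene known as a beta-catenin target (1.14, 34.3, 1.95 and 20.99 CPM, log2 3.89, adjusted p = 9.35e-04, edgeR). The other genes of that list did not pass and ranged from -0.53 for Axin2 to 0.76 for Nkd2, and the median of the list was 0.04. At an unadjusted p under 0.05 by edgeR, 2 genes of the list were higher, Tnfrsf19 and Nkd2, and 0 were lower. The 12 transducers and 2 secretion genes tested held 0 calls by edgeR's quasi-likelihood test, and 0 at an unadjusted p under 0.05, with medians of 0.18 and 0.28. In all fibroblast-like cells 2.2% of all genes were called by edgeR, 237 higher and 155 lower. There the calls were 1 of 10 ligands tested (Wnt10a), 1 of 3 R-spondins (Rspo1) and 4 of 11 secreted antagonists (Sfrp1, Frzb, Draxin and Sostdc1). They also held 1 of 18 receptors and co-receptors (Ror2), 1 of 11 canonical targets and feedback genes (Tnfrsf19), and 0 of the transducers and secretion genes. All 8 calls rose.

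**Figure D5:**
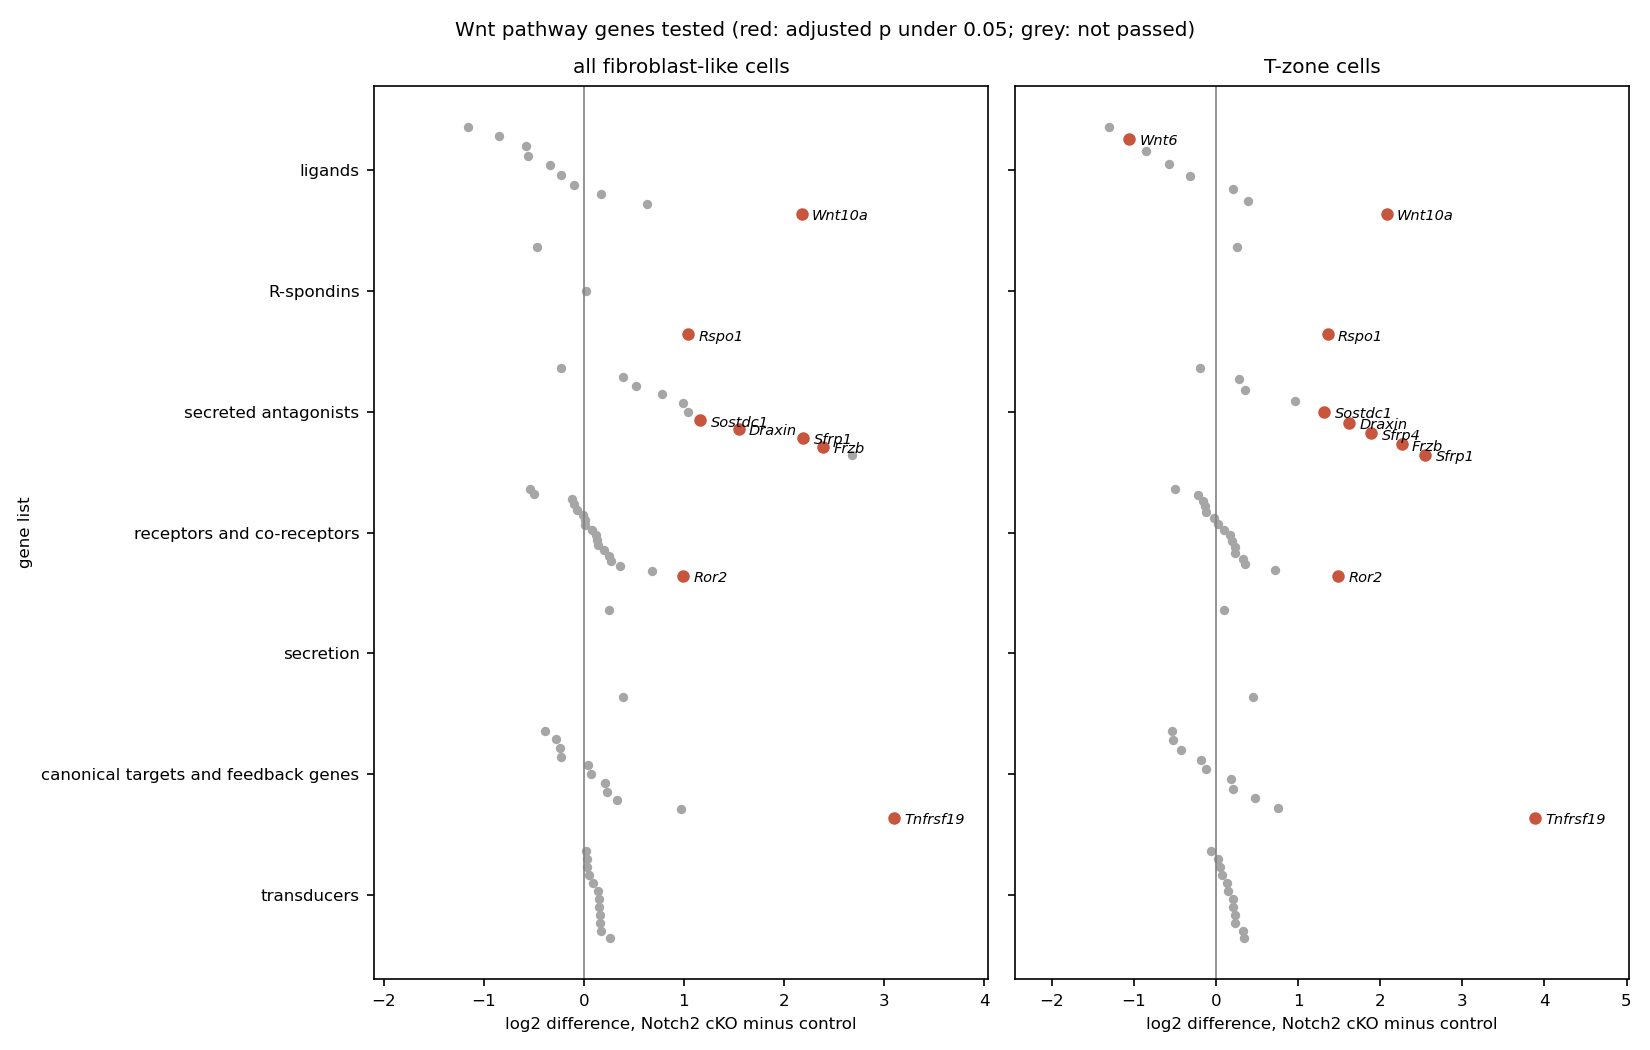
Log2 difference of Notch2 cKO minus control for every tested gene of the Wnt lists, 1 point per gene, red past an adjusted p of 0.05, with height within a list used only to spread the points. In the secreted antagonists of T-zone cells the red points range from 1.32 for Sostdc1 to 2.55 for Sfrp1, and the transducers lie close to 0.

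The genes whose levels followed a member most closely were ranked by Pearson's r of log2 CPM over 36 sums of type and library among 6451 genes. The points share libraries and depth, so r is a description. For Sfrp1 these were Ncam1 (0.733), Nmt1 and Cilp, for Sfrp2 the translation factor gene Eef1a1 (0.819), Eef2 and Uba1, and for Sfrp4 Ntn1 (0.88), Sema3c, a Pi16 gate gene, and Ptp4a2. For Dkk3 they included Matn2 and Bace1, for Dkk2 they were Lrrc17, Ece1 and Rnpep, and for Wif1 Slc1a5, Cxcl13, a marginal gate gene, and Mmp23. For Rspo3 they were Inmt, Sned1 and Dusp22, and for Wnt5a Fkbp9, Lrp1 and Psap.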

How the data were processed

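The deposited matrices hold raw UMI counts per gene and barcode (10x Genomics 3′ kit version 3.1, per the labels' protocols). Per the file headers, Cell Ranger 5.0.1 made those of batch 1 and 7.1.0 those of batch 2. The submitters' processing notes list 5.0.1 and the mm10 build. The counting of introns is not given in these sources, and it could shift levels between batches.

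Kept cells had 500 genes or more, 1000 UMIs or more and no more than 10% mitochondrial counts (9053, 7817, 17014 and 12754 in control 1, Notch2 cKO 1, control 2 and Notch2 cKO 2, of 9891, 8491, 18482 and 13452 barcodes). Total UMIs were 21533049, 25644596, 119002408 and 108144616. No doublet caller was run, and leaving out the 10% of cells with most UMIs was an alternative. Each cell went to the marker list whose threshold it exceeded most, or stayed ungated. Members and gene lists were chosen with earlier results of these data known, and gate thresholds were set on the data.

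Counts were summed per library and type, and edgeR 4.0.16 gave the tests (quasi-likelihood, after filterByExpr with TMM factors, adjusted p under 0.05) in R 4.3.3, limma 3.58.1 being loaded with it. DESeq2 1.42.0 was an alternative. Types with under 50 cells in a library got values only. Standard errors are the log2 difference divided by the square root of the test's F. Within-batch differences used a prior of 2 counts. Shares and intervals used scipy 1.17.1. The labels state that the replicate numbers mark batches, so batch was a term. Deviations of same-batch libraries from group means correlated at 0.812 over 6534 genes in all fibroblast-like cells. The tests were tried on simulated data. Besides the members and Notch2, up to 4 genes per Wnt list with the lowest adjusted p were named, and 3 genes per member by correlation at a mean of at least 20 CPM, of which 1 is not reported here.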

Additional observations from a re-analysis of the deposited data

Results flagged for a closer look

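The change of Sfrp1 between Notch2 cKO and control differed between 2 fibroblast types by a direct test. The log2 difference of the effect, Pi16 adventitial minus T-zone cells, was -2.24 (SE 0.40, adjusted p = 0.00247, edgeR quasi-likelihood test with libraries as a block). The effect itself was 0.42 in Pi16 and 2.55 in T-zone cells. Leaving out control 1, Notch2 cKO 1 or Notch2 cKO 2 gave -2.44, -2.10 and -2.21, all past the threshold, and leaving out control 2 gave -1.73 with an adjusted p of 0.825. Pi16 adventitial cells numbered 121, 324, 218 and 99.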

How the results depend on the processing

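In all fibroblast-like cells the 1 member called became 0 without the replicate block (no batch term), 2 with no filter on low counts, 2 with cells thinned to 1000 UMIs, and 0 to 0 when each library was left out. The 392 genes called became 0 without the replicate block (240 higher and 175 lower at an unadjusted p under 0.05, edgeR), 35 with library totals (30 higher and 5 lower, beside 237 and 155), 212 with median ratio factors, 1038 with no filter, 165 with a stricter cell filter and 0 to 18 when each library was left out. DESeq2 called 464 in all fibroblast-like cells. In T-zone cells the 2 members called became 0 without the block, 1 with DESeq2, 4 with doubled gate thresholds (Sfrp2 and Wnt5a added) and 0 to 0 when each library was left out. The 658 genes called there became 0 without the block (349 and 337 unadjusted), 989 with library totals (572 higher and 417 lower), 1159 with no filter, 1248 with doubled thresholds and 0 to 0 when each library was left out, and DESeq2 called 604. The 10 calls in the other types became 0 without the block, 6 with doubled thresholds and 0 to 0 without each library. The 1 difference between types became 0 to 2 without each library, with Sfrp1 in Fabp4 Col15a1 cells added without Notch2 cKO 1 (-2.09) and Sfrp4 in Pi16 cells without Notch2 cKO 2 (-3.32). The 31 calls of types against other types ranged from 24 to 35. Genotype fits within a type without 1 library had no batch term and 1 lone sample in a group, assumed to vary like the other group. Fits across types without 1 library kept libraries as a block. In those of the type by genotype term, 1 group again held a lone library. Sfrp2 was called in T-zone cells with no filter (0.99), thinned (0.83) and with doubled thresholds (1.16). No member's call changed direction in any alternative run. The stricter cell filter in T-zone cells and all alternatives of the other types were chosen after seeing the data. Low counts limit Wif1, Sfrp4 and, among the listed ligands, Wnt10a, and the 2 libraries per group limit every genotype call.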

Other observations

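Types gated mainly in batch 2 were in no comparison. In Schwann-gated cells (60 and 52 cells of control 2 and Notch2 cKO 2, 0 in batch 1) Sfrp1 was at 393 and 473 CPM on 78 and 80 UMIs, above its level in every other gated type of these libraries, with 1 library per group and no test. Ptprt Nlgn1 cells of batch 2 held Sfrp1 at 50.4 and 194 CPM and Rspo3 at 27.1 and 71.8 CPM. Pericytes held Sfrp1 at 14.4 and 35.6 CPM and smooth muscle cells at 16.9 and 34.6 CPM, and leukocytes at 1.51 and 42.2 CPM, on 2 and 47 UMIs. Wnt5a was at 5.24 and 6.43 CPM in pericytes and at 62.9 and 73.3 CPM in epithelial-gated cells (56 and 31 cells). Wif1 was at 35.7 and 2.82 CPM in those epithelial-gated cells, on 25 and 1 UMIs. In each case the first value is control 2 and the second Notch2 cKO 2.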
